A study of Arabidopsis thaliana with 10 samples.

Results

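The 32 genes described here belong to the SAUR family (SMALL AUXIN UP RNA) of Arabidopsis thaliana and lie in tandem clusters on chromosomes 1 to 5. They were chosen by locus identifier, with earlier results of these data known, out of 33602 genes in the deposited count table. Of the 32, 30 passed the filter on low counts and were tested among 20334 genes. Messenger RNA had been sequenced from leaves of soil-grown, untreated plants aged 4 weeks, with 10 libraries in 5 genotypes of 2 libraries each, whereas the series text speaks of triplicates. The genotypes with a transgene were 3 lines in the pnet2_ab background, labelled 35S:NTL6-SRDX (NTL6-SRDX here), 35S:NTL9-SRDX (NTL9-SRDX) and 35S:NTL12-SRDX (NTL12-SRDX), and pnet2_ab without a transgene was the mutant they share. The unmutated plants were wild type Col-0, called WT here. All 3 lines therefore shared the pnet2_ab mutations, and WT was the only group without them. PNET2 proteins belong to the inner membrane of the nuclear envelope, NTL factors are NAC transcription factors held at a membrane, SRDX is a short repression domain that turns a factor fused to it into a repressor, and 35S is a viral promoter active in most plant tissues. The labels give neither the number of independent transformants nor the mutant alleles, and they do not say whether replicates came from separate plants, so the p-values rest on a spread between libraries that may be technical only. The second NTL12 library is titled NTL12 but carries NTL2 in its genotype label, and results are given without it where they rest on it.

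SAUR genes are the largest family of early auxin-response genes, and most are short, lack introns and yield unstable transcripts. Auxin binds the TIR1/AFB receptors, which mark Aux/IAA repressors for destruction and so release auxin response factors (ARFs), some of which switch on SAUR genes. SAUR proteins are known to inhibit PP2C.D phosphatases, which would otherwise switch off the proton pumps of the plasma membrane (AHA proteins), so that the cell wall is acidified and the cell expands. Light, through PIF factors, and brassinosteroid, through BZR1 and BES1, act on many of the same SAUR promoters.

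The promoters of the clusters were searched for preset short motifs, and they were not aligned to each other. In the window from 250 bases before to 50 bases after each RefSeq gene start (TAIR10.1), the hexamer CATGTG, searched on both strands, occurred in 23 of the 32 SAUR promoters (71.9%), against 12.9% of 27443 promoters of protein-coding genes and 12.8% of those of tested genes. As background, CATGTG is a sequence that some NAC factors bind, and its reverse complement CACATG is known as an E-box variant bound by PIF factors. There were 41 copies in all, and 13 members held more than a single copy. The copy nearest the gene start is printed for the chromosome 1 cluster, for 3 members of the chromosome 5 cluster and for SAUR27 and SAUR14, read 5′ to 3′ in the CATGTG orientation with the hexamer in capitals:
SAUR61 (chr1:10302165-10302190, plus strand): ctactcacaaCATGTGgattagaaac
SAUR62 (chr1:10303413-10303438, minus strand): gaaacataatCATGTGttgtgtctgg
SAUR63 (chr1:10305185-10305210, minus strand): gaaacataagCATGTGttgtgtcggg
SAUR64 (chr1:10306563-10306588, minus strand): agaaacctggCATGTGtttctgtctg
SAUR65 (chr1:10308225-10308250, minus strand): actacaagagCATGTGtttctgtctt
SAUR68 (chr1:10319643-10319668, plus strand): aagacaaaagCATGTGttatgtctgg
SAUR66 (chr1:10320965-10320990, minus strand): aagacatgatCATGTGggtatcaaaa
SAUR67 (chr1:10322371-10322396, minus strand): aagacaagatCATGTGggtatgaatc
SAUR27 (chr3:981074-981099, plus strand): cagacagaagCATGTGaaactctcaa
SAUR14 (chr4:18125629-18125654, minus strand): ccggcaaagcCATGTGcttgcttgtt
SAUR19 (chr5:5963513-5963538, minus strand): aagacagaacCATGTGaactcttgct
SAUR21 (chr5:5968300-5968325, plus strand): aagacagaacCATGTGagctctgttc
SAUR22 (chr5:5975177-5975202, minus strand): gagacagaacCATGTGaactcttgct

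The windows of SAUR66 and SAUR67, and those of SAUR19, SAUR21 and SAUR22, were close to copies of each other. Many held tgtc or its reverse complement gaca beside the hexamer, which as background is the core of the auxin response element. Of the 23 members with CATGTG, 17 (73.9%) had TGTC, on either strand, whole within 10 bases of a copy, against 12% of the 3355 promoters in the genome that held CATGTG with 10 bases on both sides. This flank was examined after the windows had been read, and tandem copies share ancestry, so that the promoters are not independent of each other. The longer auxin response elements were less frequent: TGTCTC was in 8 members (25.0%, against 14.2% of all promoters) and TGTCGG in 2 (6.2%, against 5.12%). No member held the G-box CACGTG, found in 7.68% of all promoters, or the brassinosteroid response element CGTGCG, found in 1.96%. The TATA box letters TATAAA were in 14 members (43.8%, against 52.1%). A match is a description of letters in this window and not a site. Whether a motif falls inside depends on the RefSeq gene start, which can lie away from the start in the count table.

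The libraries held 22.6 to 28.3 M counts each. Mesophyll markers (RBCS1A, LHCB1.3, LHCB2.1, CA1 and RCA, 5 of 5 detected) summed to between 40800 and 69300 CPM (counts scaled to a common library size) per library, as leaf tissue would give. The labels name PNET2 without loci. Of 3 PNET2 family genes, AT1G28760 was at 19.0 and 16.7 CPM in pnet2_ab, against 5.75 and 3.75 CPM in WT, AT3G49840 at 3.82 and 5.46 CPM in pnet2_ab, against 6.4 and 9.19 CPM in WT, and AT5G67610 at 9.3 and 8.07 CPM in pnet2_ab, against 15.5 and 17.7 CPM in WT, so that these levels do not by themselves check the mutant label. NTL6 was at 18.1 and 19.7 CPM in NTL6-SRDX, against 23.8 and 27.1 CPM in pnet2_ab, and NTL9 was at 27.7 and 22.9 CPM in NTL9-SRDX, against 26.5 and 25.5 CPM in pnet2_ab. Neither transcript was above pnet2_ab in both libraries of its own line, whereas NTL6 was at 36.5 and 29.5 CPM in NTL12-SRDX, above both pnet2_ab libraries. No NTL12 level was read. The names NTL6-SRDX, NTL9-SRDX and NTL12-SRDX therefore stand here for the libraries labelled so.

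Summed over the 32 genes, SAUR transcripts made up 242 and 243 CPM in NTL6-SRDX, 254 and 276 CPM in NTL9-SRDX, 196 and 182 CPM in NTL12-SRDX, and 175 and 158 CPM in pnet2_ab, against 280 and 278 CPM in WT. The sum was lowest in the pnet2_ab libraries and highest in the WT libraries, with NTL9-SRDX nearest to WT and NTL12-SRDX nearest to pnet2_ab. Per length, the family was dominated by few members. On the authors' FPKM scale, which divides by gene length, the highest levels in WT were those of SAUR14 (64.4 ± 2.23), SAUR6 (63.8 ± 4.33), SAUR16 (51.9 ± 6.21), SAUR50 (32.5 ± 2.84) and SAUR29 (27.3 ± 0.925; SD, n = 2 each). SAUR14 and SAUR6 did not differ in level beyond their spread. At the other end, SAUR12, SAUR2 and SAUR68 averaged 0.595, 0.44 and 0.35 FPKM in WT, and SAUR13 was at 0.

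SAUR13 (AT4G38825) had no count in any library, and SAUR2 (AT4G34780) had 0 counts in every line and pnet2_ab library, against 4 and 2 counts in WT; both were left out of the tests by the low-count filter. At 95% confidence a count of 0 allows a true value of up to 3 counts, which is between 0.0978 and 0.15 CPM depending on the library and covers counting error only. SAUR13 overlaps AT4G38820 on the opposite strand over 433 bases, and SAUR61 overlaps AT1G29418 over 151 bases. Libraries were strand-specific per the labels, but whether counting used strand, and how reads shared between copies were treated, are not given in the sources used here. Every member has its coding sequence in 1 segment, and the copies resemble each other: in the chromosome 5 cluster the coding sequence was 93.0% to 95.9% identical to the nearest other member, and in the chromosome 1 cluster 85.4% to 92.0%. Of the 50-base stretches of SAUR62, SAUR63, SAUR67 and SAUR19, 71.4%, 72.9%, 73.5% and 76.5% were unique in the genome, and of the 100-base stretches 89.3%, 81.1% and 81.6% were for SAUR62, SAUR63 and SAUR67 and every one for SAUR19. The read length is not given in the sources used here, and at either length the counts of SAUR62, SAUR63 and SAUR67 are uncertain as to which copy the reads came from.

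In pnet2_ab against WT, 17 of the 30 tested SAUR genes were lower and 0 were higher (edgeR quasi-likelihood test, Benjamini-Hochberg adjusted p under 0.05). Over all tested genes, 16.8% were lower and 17.2% were higher. The members' median log2 fold change was -0.72, against 0.035 over all genes, and 25 of the 30 were negative. Because SAUR genes are short (273 to 1049 bases in the count table), the same share was taken among genes no longer than the longest member: 22% were lower, with a median of -0.096. Unadjusted p was under 0.05 for 1 member in the higher direction, and DESeq2 called 0 higher and 15 lower. For each of the 17, both pnet2_ab libraries lay below both WT libraries. The calls were made on these same libraries, so this is no separate evidence. Of all 30 tested members, called or not, 24 had no overlap between the 2 genotypes, SAUR12 among them with the higher values in pnet2_ab. The share of all genes without overlap was not taken, so this count cannot be set against the rest of the genome. In bulk leaf tissue, fewer cells of a type and less RNA per cell cannot be told apart. The count rested in part on single libraries: it was 9 without pnet2_ab replicate 2, 12 without pnet2_ab replicate 1 and 13 without either WT library. The 6 calls on SAUR6, SAUR14, SAUR21, SAUR29, SAUR50 and SAUR67 held in every alternative run.

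**Figure D1:**
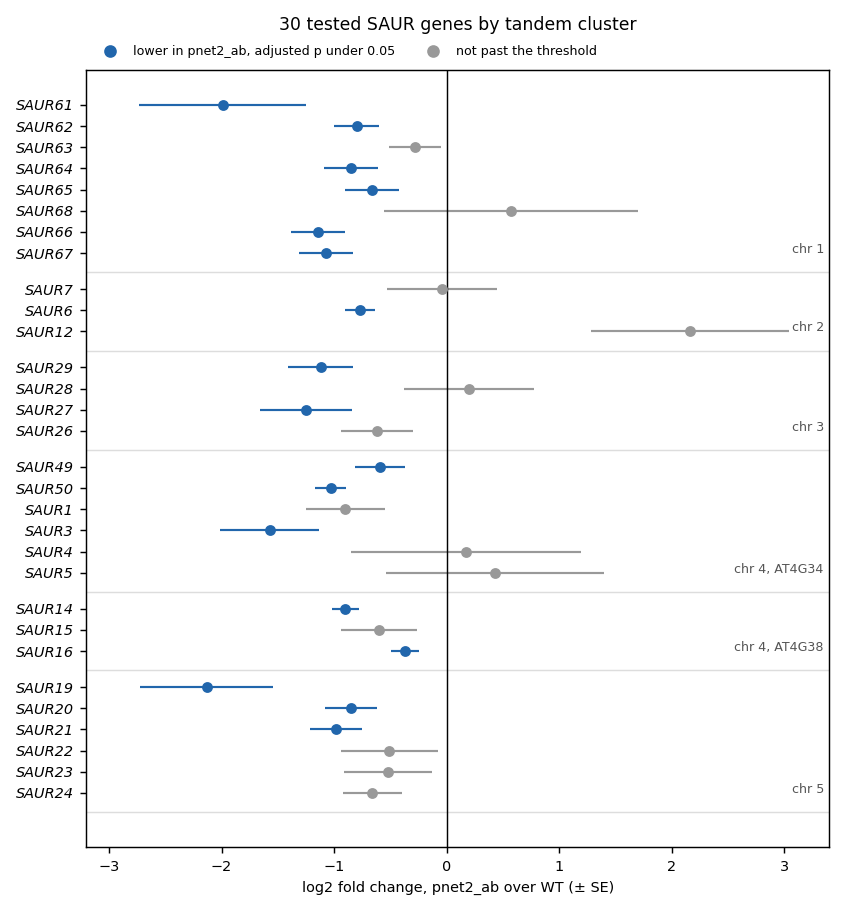
Log2 fold change of pnet2_ab over WT (x axis) for the 30 tested SAUR genes, in chromosomal order within each cluster, with bars of ± 1 SE. Blue points are the 17 genes lower at adjusted p under 0.05 and grey points the other 13; all but 5 points lie left of 0.

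In the chromosome 1 cluster (chr1:10301152-10323189), 6 of 8 members were lower in pnet2_ab. This group, SAUR61 to SAUR68, is known for promoting the expansion of hypocotyl and stamen filament cells. SAUR66 (AT1G29500) had 3.29 and 3.07 CPM in NTL6-SRDX, 5.82 and 6.66 in NTL9-SRDX, 5.08 and 5.08 in NTL12-SRDX, 4.47 and 4.69 in pnet2_ab, and 12.6 and 7.58 in WT, with a log2 fold change of -1.14 ± 0.24 in pnet2_ab against WT (adjusted p = 0.00088). Both NTL6-SRDX libraries lay under both pnet2_ab libraries, and both WT libraries lay above all others. SAUR67 (AT1G29510) had 4.24 and 5.94 CPM in NTL6-SRDX, 6.28 and 5.51 in NTL9-SRDX, 5.23 and 6.07 in NTL12-SRDX, 4.34 and 4.12 in pnet2_ab, and 7.65 and 10.1 in WT (-1.07 ± 0.24, adjusted p = 0.0012). SAUR62 (AT1G29430) had 7.02 and 8.67 CPM in NTL6-SRDX, 11.2 and 9.37 in NTL9-SRDX, 6.6 and 6.64 in NTL12-SRDX, 7.9 and 6.07 in pnet2_ab, and 10.7 and 13.7 in WT (-0.80 ± 0.20, adjusted p = 0.0033). For both genes all pnet2_ab values lay under all WT values, and for SAUR62 the NTL9-SRDX and WT values overlapped.

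SAUR64 (AT1G29450) had 5.0 and 4.33 CPM in NTL6-SRDX, 6.03 and 5.55 in NTL9-SRDX, 5.5 and 4.96 in NTL12-SRDX, 5.02 and 3.3 in pnet2_ab, and 7.6 and 7.54 in WT, a log2 fold change of -0.85 ± 0.24 (adjusted p = 0.0086). SAUR65 (AT1G29460) had 6.98 and 5.71 CPM in NTL6-SRDX, 7.64 and 6.08 in NTL9-SRDX, 7.2 and 4.84 in NTL12-SRDX, 5.25 and 5.75 in pnet2_ab, and 7.05 and 10.3 in WT (-0.66 ± 0.24, adjusted p = 0.039). SAUR61 (AT1G29420) was near the floor, with 0.833 and 0.345 CPM in NTL6-SRDX, 1.44 and 1.03 in NTL9-SRDX, 0.834 and 0.369 in NTL12-SRDX, 0.326 and 0.408 in pnet2_ab, and 1.95 and 0.981 in WT (-1.99 ± 0.74, adjusted p = 0.042). The WT values were the highest for SAUR64, whereas for SAUR65 a single library each of NTL9-SRDX and NTL12-SRDX, and for SAUR61 both NTL9-SRDX libraries, lay within the WT range. SAUR63 (AT1G29440; log2 fold change -0.28 ± 0.23) and SAUR68 (AT1G29490; 0.57 ± 1.13, at most 0.74 CPM in any library) did not pass the test. Several calls in this cluster missed the threshold with 1 library left out: SAUR62 without WT replicate 2 (-0.62), SAUR64 without pnet2_ab replicate 2 (-0.59), SAUR66 without WT replicate 1 (-0.74), SAUR65 without WT replicate 2 (-0.37), pnet2_ab replicate 1 (-0.60) or pnet2_ab replicate 2 (-0.73), and SAUR61 without WT replicate 1 (-1.42), pnet2_ab replicate 1 (-1.83), pnet2_ab replicate 2 (-2.15) or either NTL9-SRDX library (-2.0 each). SAUR65 also missed it with DESeq2 (-0.67) and with limma on FPKM (-0.61), and SAUR61 with the replicate block (-1.90).

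In the chromosome 2 cluster (chr2:9083906-9089813), SAUR6 was the 1 member lower in pnet2_ab of 3 tested. SAUR6 (AT2G21210; chr2:9085210-9085909, minus strand) had 28 and 33.2 CPM in NTL6-SRDX, 42 and 43.8 in NTL9-SRDX, 25.1 and 31.6 in NTL12-SRDX, 30.6 and 22.8 in pnet2_ab, and 43.5 and 47.9 in WT. The levels formed 2 tiers, with NTL9-SRDX and WT at 42 CPM and above and all other libraries at 33.2 CPM and below. The log2 fold change of pnet2_ab over WT was -0.77 ± 0.13 (adjusted p = 0.0001). SAUR12 (AT2G21220) had the largest positive value of the 30 members, 2.16 ± 0.88, but did not pass (adjusted p = 0.063). Its raw counts were 49 and 25 in pnet2_ab, against 11 and 1 in WT. SAUR12 was called higher without the low-count filter (2.16) and with limma on FPKM (1.66). So it was without WT replicate 1 (4.73) or either NTL9-SRDX library (2.15 each). SAUR7 (AT2G21200), which overlaps AT2G21195 by 4 bases, showed a log2 fold change of -0.04 ± 0.49.

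In the chromosome 3 cluster (chr3:976933-983751), 2 of 4 members were lower. The SAUR26 to SAUR29 group is known for its part in growth at warm temperature. SAUR29 (AT3G03820) had 6.03 and 4.87 CPM in NTL6-SRDX, 2.33 and 5.22 in NTL9-SRDX, 3.91 and 3.48 in NTL12-SRDX, 3.95 and 3.51 in pnet2_ab, and 7.95 and 8.34 in WT (log2 fold change of pnet2_ab over WT -1.12 ± 0.29, adjusted p = 0.0046). Every other library lay below both WT libraries. SAUR27 (AT3G03840) had 2.66 and 2.34 CPM in NTL6-SRDX, 1.78 and 2.47 in NTL9-SRDX, 1.33 and 2.01 in NTL12-SRDX, 1.17 and 1.39 in pnet2_ab, and 2.6 and 3.48 in WT (-1.25 ± 0.41, adjusted p = 0.022). The SAUR27 call was lost without WT replicate 2 (-1.04), pnet2_ab replicate 1 (-1.13) or pnet2_ab replicate 2 (-1.37). SAUR26 (AT3G03850; -0.62 ± 0.32) and SAUR28 (AT3G03830; 0.20 ± 0.58) did not pass.

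In the first chromosome 4 cluster (chr4:16577404-16599421), 3 of 6 tested members were lower. SAUR50 (AT4G34760; chr4:16582183-16582879, minus strand), known with SAUR14 and SAUR16 from light-driven opening of cotyledons, had 19.2 and 17.6 CPM in NTL6-SRDX, 21.2 and 19.7 in NTL9-SRDX, 15.7 and 15.4 in NTL12-SRDX, 12.7 and 9.9 in pnet2_ab, and 21.7 and 24.6 in WT. No 2 genotypes overlapped, the order running from pnet2_ab at the low end through NTL12-SRDX, NTL6-SRDX and NTL9-SRDX to WT, although the NTL6-SRDX and NTL9-SRDX libraries came as near as 19.2 and 19.7 CPM. The log2 fold change of pnet2_ab over WT was -1.03 ± 0.14 (adjusted p = 6.9e-06). SAUR3 (AT4G34790) had 2.18 and 2.22 CPM in NTL6-SRDX, 2.97 and 1.69 in NTL9-SRDX, 3.41 and 2.09 in NTL12-SRDX, 0.75 and 1.75 in pnet2_ab, and 3.15 and 4.19 in WT (-1.57 ± 0.44, adjusted p = 0.008). SAUR49 (AT4G34750) had 9.6 and 6.29 CPM in NTL6-SRDX, 6.88 and 9.62 in NTL9-SRDX, 8.23 and 8.36 in NTL12-SRDX, 7.11 and 6.68 in pnet2_ab, and 11.4 and 9.41 in WT (-0.59 ± 0.22, adjusted p = 0.041). The lines' values for SAUR3 and SAUR49 ran across most of the range between pnet2_ab and WT. SAUR1 (AT4G34770) had 2.42 and 2.34 CPM in NTL6-SRDX, 3.27 and 3.7 in NTL9-SRDX, 3.91 and 4.3 in NTL12-SRDX, 2.19 and 1.14 in pnet2_ab, and 3.4 and 2.9 in WT, and its value in pnet2_ab against WT did not pass (-0.90 ± 0.35, adjusted p = 0.054). SAUR4 (AT4G34800) and SAUR5 (AT4G34810) stayed at or under 1.63 CPM in every library and did not pass (0.17 ± 1.02 and 0.43 ± 0.97). The SAUR3 call was lost without WT replicate 2 (-1.36) or pnet2_ab replicate 1 (-1.07). The SAUR49 call was lost without WT replicate 1 (-0.46), pnet2_ab replicate 1 (-0.64) or 2 (-0.55), or either NTL12-SRDX library (-0.59 each), and with DESeq2 (-0.60) or limma on FPKM (-0.55).

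In the second chromosome 4 cluster (chr4:18121526-18131060), 2 of 3 tested members were lower, and it held the members with the clearest differences among genotypes. SAUR14 (AT4G38840; chr4:18124978-18125559, minus strand) had 39.8 and 43.8 CPM in NTL6-SRDX, 38.2 and 47.5 in NTL9-SRDX, 30.1 and 27.2 in NTL12-SRDX, 20.9 and 20.1 in pnet2_ab, and 39.3 and 37.4 in WT. The NTL6-SRDX and NTL9-SRDX libraries lay within or above the WT range, NTL12-SRDX lay between, and pnet2_ab was lowest, at a log2 fold change of -0.90 ± 0.12 against WT (adjusted p = 2.4e-06). SAUR16 (AT4G38860; chr4:18130268-18131060, plus strand) had 57.4 and 56.4 CPM in NTL6-SRDX, 52.4 and 58.5 in NTL9-SRDX, 35.8 and 26.1 in NTL12-SRDX, 33.0 and 32.2 in pnet2_ab, and 45.7 and 38.6 in WT. For SAUR16 both NTL6-SRDX and NTL9-SRDX libraries exceeded both WT libraries, and the difference of pnet2_ab from WT was small (-0.37 ± 0.12, adjusted p = 0.023). SAUR15 (AT4G38850), long studied under the name SAUR-AC1, had 4.08 and 5.83 CPM in NTL6-SRDX, 2.76 and 4.69 in NTL9-SRDX, 3.26 and 2.79 in NTL12-SRDX, 2.74 and 2.32 in pnet2_ab, and 4.8 and 2.94 in WT, and did not pass in pnet2_ab against WT (-0.60 ± 0.34, adjusted p = 0.19). The SAUR16 call was lost without WT replicate 1 (-0.25), pnet2_ab replicate 1 (-0.39) or pnet2_ab replicate 2 (-0.35), and with limma on FPKM (-0.36).

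**Figure D2:**
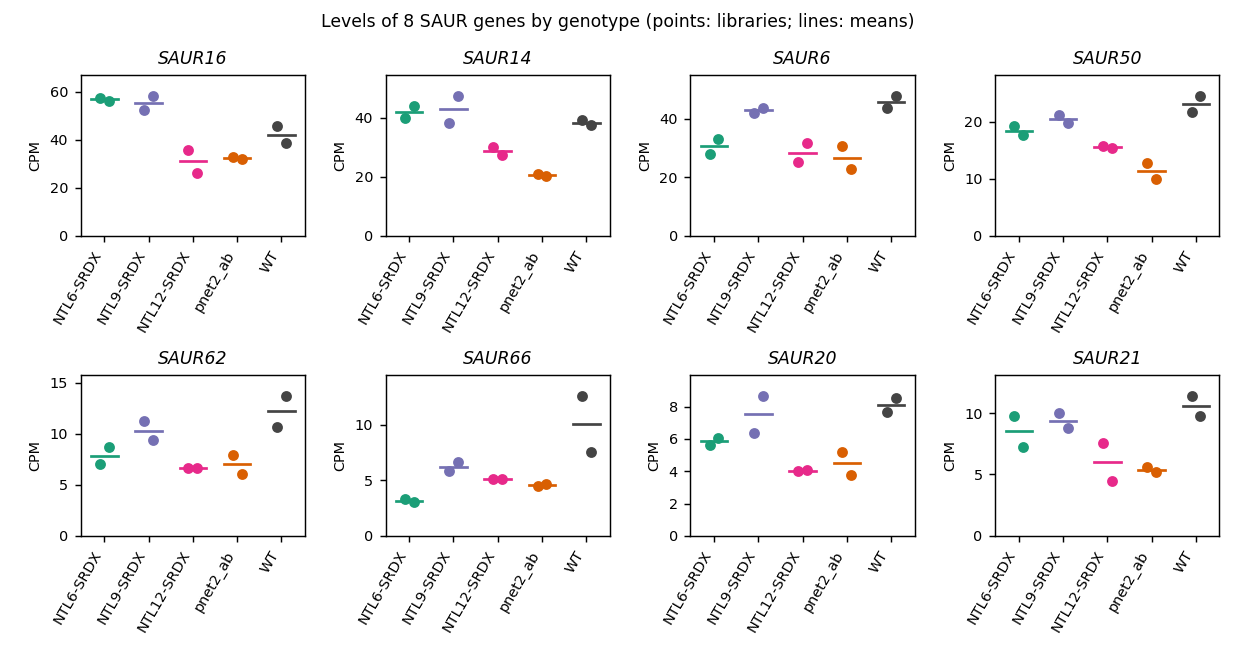
Levels in CPM (y axes, each starting at 0) of 8 SAUR genes in NTL6-SRDX, NTL9-SRDX, NTL12-SRDX, pnet2_ab and WT; each point is a library and each line the mean of 2. SAUR14 sits at 20.9 and 20.1 CPM in pnet2_ab, below every other library, while SAUR16 is highest in NTL6-SRDX and NTL9-SRDX and SAUR66 lowest in NTL6-SRDX.

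In the chromosome 5 cluster (chr5:5962897-5984112), 3 of 6 members were lower. SAUR19 to SAUR24 form the group in which inhibition of PP2C.D phosphatases by SAUR proteins was worked out. SAUR21 (AT5G18030) had 9.79 and 7.25 CPM in NTL6-SRDX, 9.98 and 8.76 in NTL9-SRDX, 7.58 and 4.43 in NTL12-SRDX, 5.58 and 5.18 in pnet2_ab, and 11.4 and 9.76 in WT (log2 fold change of pnet2_ab over WT -0.98 ± 0.23, adjusted p = 0.0023). SAUR20 (AT5G18020) had 5.63 and 6.06 CPM in NTL6-SRDX, 6.37 and 8.67 in NTL9-SRDX, 4.02 and 4.06 in NTL12-SRDX, 5.19 and 3.79 in pnet2_ab, and 7.7 and 8.56 in WT (-0.85 ± 0.23, adjusted p = 0.0069). The NTL9-SRDX libraries overlapped WT for both genes, whereas NTL12-SRDX overlapped pnet2_ab. SAUR19 (AT5G18010) had 0.753 and 0.729 CPM in NTL6-SRDX, 1.06 and 1.07 in NTL9-SRDX, 0.91 and 1.43 in NTL12-SRDX, 0.555 and 0.448 in pnet2_ab, and 2.85 and 1.61 in WT (-2.13 ± 0.59, adjusted p = 0.0074). For SAUR19 no line library reached the WT range. SAUR22 (AT5G18050), SAUR23 (AT5G18060) and SAUR24 (AT5G18080) had log2 fold changes of -0.51 ± 0.43, -0.52 ± 0.39 and -0.66 ± 0.26 and did not pass. The SAUR19 call was lost without WT replicate 1 (-1.67) or pnet2_ab replicate 2 (-1.99), and the SAUR20 call without pnet2_ab replicate 2 (-0.65).

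**Figure D3:**
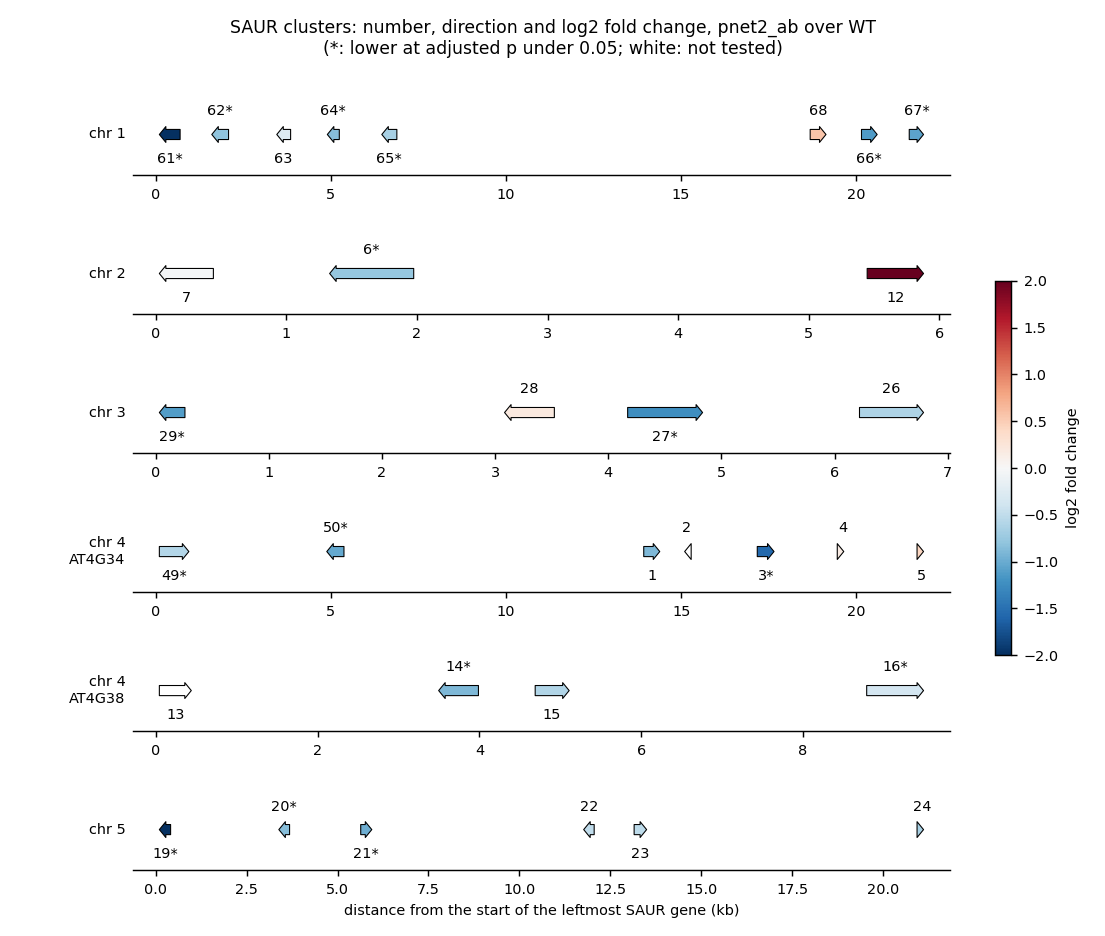
The 6 clusters drawn to scale, with distance from the start of the leftmost SAUR gene in kilobases on the x axes; arrows give the direction of transcription, numbers the SAUR gene, and colour the log2 fold change of pnet2_ab over WT. Asterisks mark the 17 lower genes, which occur in all 6 clusters and on both strands; the 2 untested genes are white.

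Genes lying between the members in the same stretches of chromosome were set beside them. Of 15 such genes, 1 of them (AT3G03847, SAUR73) itself a SAUR gene that was not tested, 6 were tested, and 0 were lower and 0 higher in pnet2_ab (median log2 fold change 0.34), a count that stayed at 0 in both directions in every alternative, DESeq2 included. With 16.8% of all genes lower and 17.2% higher, 0 of 6 does not set these genes apart from the rest of the genome. The 3 with the smallest p were AT5G18065 (0.67 ± 0.31), DRT101 (0.35 ± 0.20) and AT5G18040 (0.33 ± 0.22). AT1G29470, which lies between SAUR65 and SAUR68, had 201 and 197 CPM in pnet2_ab, against 199 and 213 CPM in WT; it is named after its values were seen. Of the SAUR genes that are not members, 27 were tested, and 4 were higher and 5 lower in pnet2_ab, with a median of 0.14; these shares are near the 17.2% and 16.8% of all genes. SAUR71 was higher, at 11.3 and 11.2 CPM in pnet2_ab against 3.75 and 3.03 CPM in WT (1.73 ± 0.22, adjusted p = 1.5e-06), as was SAUR59 (0.70 ± 0.17, adjusted p = 0.0022), while SAUR57 was lower (-2.26 ± 0.53, adjusted p = 0.0021).

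Of the 17 lower members, 13 held the CATGTG hexamer, and so did 9 of the 13 tested members that were not called. Not being called does not show that a member was unchanged. SAUR1 (-0.90) and SAUR24 (-0.66) narrowly missed the threshold (edgeR adjusted p = 0.054 and 0.058). Other members not called had small or positive values, such as SAUR7 (-0.04) and SAUR28 (0.20), and 25 of all 30 values were negative. These counts therefore cannot show whether the hexamer goes with the fall, which was not tested. The 250 bases before the gene start are printed for the 3 members called in at least 3 of the 4 main comparisons, 5′ to 3′ in the direction of the gene, with CATGTG and TATAAA in capitals:
SAUR14 (chr4:18125560-18125809, minus strand): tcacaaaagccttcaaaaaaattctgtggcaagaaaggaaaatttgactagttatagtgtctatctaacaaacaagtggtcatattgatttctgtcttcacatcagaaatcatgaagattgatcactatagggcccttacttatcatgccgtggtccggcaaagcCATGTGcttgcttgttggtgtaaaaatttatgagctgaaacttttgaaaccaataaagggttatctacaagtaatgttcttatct
SAUR50 (chr4:16583076-16583325, minus strand): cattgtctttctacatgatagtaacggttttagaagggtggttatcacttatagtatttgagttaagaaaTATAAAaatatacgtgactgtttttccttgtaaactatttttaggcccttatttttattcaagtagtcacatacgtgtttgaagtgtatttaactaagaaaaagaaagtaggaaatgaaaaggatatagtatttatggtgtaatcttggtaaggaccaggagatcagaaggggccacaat
SAUR16 (chr4:18129987-18130236, plus strand): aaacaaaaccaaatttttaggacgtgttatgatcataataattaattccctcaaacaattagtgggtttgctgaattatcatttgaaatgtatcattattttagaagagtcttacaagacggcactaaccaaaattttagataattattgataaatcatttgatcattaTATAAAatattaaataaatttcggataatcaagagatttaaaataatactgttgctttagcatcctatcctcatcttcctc

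Of the 3, SAUR14 held CATGTG, at -85 from the gene start, and neither SAUR50 nor SAUR16 held it in this window.

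The lines were next compared with pnet2_ab, the background they share; the 3 comparisons and that of pnet2_ab with WT all use the same pnet2_ab libraries, so their values are set side by side and not correlated. In NTL9-SRDX, 7 members were higher than in pnet2_ab and 0 lower, where 11.6% of all tested genes were higher and 10.8% lower. They were SAUR14 (1.06 ± 0.12, adjusted p = 6.1e-07), SAUR16 (0.77 ± 0.12, adjusted p = 6.3e-05), SAUR50 (0.85 ± 0.14, adjusted p = 0.00013), SAUR6 (0.68 ± 0.13, adjusted p = 0.00063), SAUR21 (0.80 ± 0.23, adjusted p = 0.015), SAUR20 (0.74 ± 0.23, adjusted p = 0.025) and SAUR1 (1.05 ± 0.35, adjusted p = 0.034). The median over the 30 members was 0.58, against -0.011 over all genes, and 27 were positive. At an unadjusted p under 0.05, 0 members were lower, and DESeq2 called 7 higher and 0 lower. SAUR1 missed the threshold without pnet2_ab replicate 2 (0.67), NTL9-SRDX replicate 1 (1.14) or NTL9-SRDX replicate 2 (0.96), SAUR20 without pnet2_ab replicate 2 (0.54) or NTL9-SRDX replicate 2 (0.50), and SAUR21 without pnet2_ab replicate 2 (0.75) or NTL9-SRDX replicate 1 (0.71). With only the 4 libraries of this comparison in the fit, SAUR1 (1.05) and SAUR20 (0.74) missed it too.

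In NTL6-SRDX, 4 members were higher than in pnet2_ab and 0 lower, where 8.75% of all genes were higher and 9.35% lower. All 3 tested members of the SAUR14 cluster were among them: SAUR14 (1.03 ± 0.12, adjusted p = 1.4e-06), SAUR16 (0.80 ± 0.12, adjusted p = 5.5e-05) and SAUR15 (0.97 ± 0.33, adjusted p = 0.048), with SAUR50 as the other (0.70 ± 0.14, adjusted p = 0.0014). The members' median was 0.52, against -0.002 over all genes. None of the 8 chromosome 1 members was called, and their median was 0.19; SAUR66 had a value of -0.52 ± 0.26. Of the 30, 25 were positive and 5 negative. At an unadjusted p under 0.05, 1 member was lower, SAUR22 (-1.13 ± 0.45, adjusted p = 0.09). It was called lower without the low-count filter. DESeq2 called 3 higher and 0 lower. The SAUR15 call was lost without pnet2_ab replicate 1 (1.09), pnet2_ab replicate 2 (0.86), NTL6-SRDX replicate 2 (0.69) or either NTL12-SRDX library (0.97 each), and also with DESeq2 (0.97), limma on FPKM (0.88), the replicate block (0.96) or the 4 libraries of this comparison alone (0.96).

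In NTL12-SRDX, 2 members were higher than in pnet2_ab and 0 lower, where 3.11% of all genes were higher and 3.84% lower: SAUR1 (1.28 ± 0.35, adjusted p = 0.026) and SAUR14 (0.48 ± 0.12, adjusted p = 0.013). The median over members was 0.16, against -0.00026 over all genes. At an unadjusted p under 0.05, 0 members were lower, and DESeq2 called 2 higher and 0 lower. Without NTL12-SRDX replicate 1 both calls were lost (SAUR1 at 1.35 and SAUR14 at 0.41). Without NTL12-SRDX replicate 2, whose labels conflict, SAUR1 was lost (1.21) and SAUR14 was called. Without pnet2_ab replicate 2 both were lost (0.91 and 0.46), and SAUR3 was called in their place (1.87, adjusted p = 0.047).

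**Figure D4:**
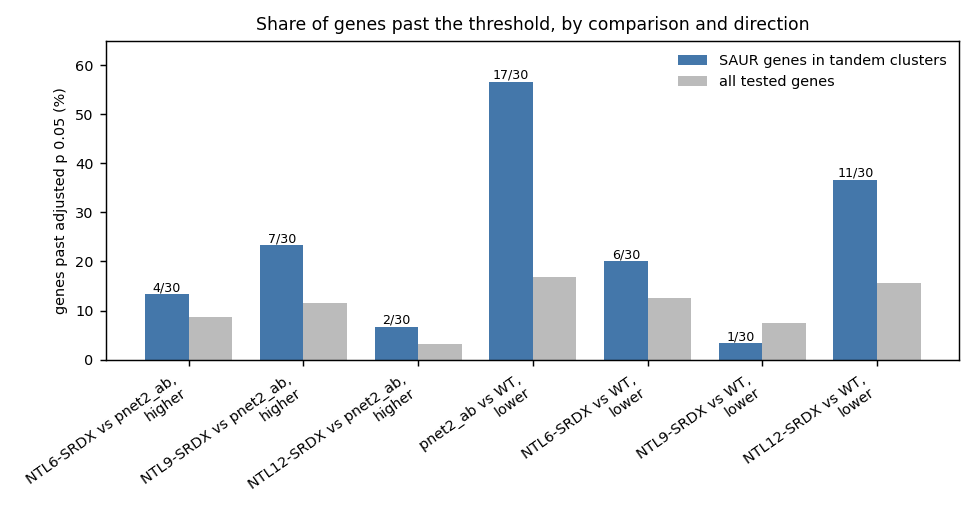
Share of the 30 tested SAUR genes (blue, with counts) and of all 20334 tested genes (grey) past adjusted p 0.05, in percent on the y axis, for the 4 main comparisons and each line against WT in the direction named. The SAUR share stands furthest above the share of all genes for pnet2_ab below WT, 17 of 30 against 16.8%.

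Set against WT, NTL9-SRDX had 1 lower member, SAUR29 (-1.10 ± 0.30, adjusted p = 0.015), and 1 higher, SAUR16 (0.40 ± 0.12, adjusted p = 0.032), where 7.43% of all genes were lower and 6.29% higher. NTL6-SRDX had 6 lower members and 1 higher, where 12.6% of all genes were lower and 10.9% higher. The 6 were SAUR62, SAUR64, SAUR66 and SAUR67 of the chromosome 1 cluster, SAUR6 and SAUR22, led by SAUR66 (-1.66 ± 0.25, adjusted p = 3.9e-05), and the higher 1 was SAUR16 (0.43 ± 0.12, adjusted p = 0.011). NTL12-SRDX had 11 lower members and 0 higher, where 15.6% of all genes were lower and 14.9% higher; the lowest p was that of SAUR6 (-0.69 ± 0.13, adjusted p = 0.00041). At an unadjusted p under 0.05, 1 member was higher in NTL12-SRDX, and DESeq2 called 0 higher and 10 lower. The NTL12-SRDX count was 5 without its replicate 2, whose labels conflict, and the NTL6-SRDX count of lower members was 2 without NTL6-SRDX replicate 1. In NTL6-SRDX against WT, the SAUR64 call was lost without any 1 of the 4 libraries compared (-0.80 to -0.60) and with DESeq2 (-0.71). Also lost there were SAUR62 (-0.47 and -0.49) and SAUR67 (-0.60 and -0.58) without WT replicate 2 or NTL6-SRDX replicate 1, SAUR22 without WT replicate 1 (-1.36) or NTL6-SRDX replicate 2 (-1.23), and SAUR6 without NTL6-SRDX replicate 1 (-0.46). SAUR16 was no longer called higher in NTL6-SRDX without WT replicate 2 (0.30) or NTL6-SRDX replicate 1 (0.42), nor in NTL9-SRDX without WT replicate 2 (0.27) or NTL9-SRDX replicate 2 (0.31) or with limma on FPKM (0.39). SAUR29 was no longer called lower in NTL9-SRDX without WT replicate 1 (-1.14), WT replicate 2 (-1.08) or NTL9-SRDX replicate 1 (-0.64).

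**Figure D5:**
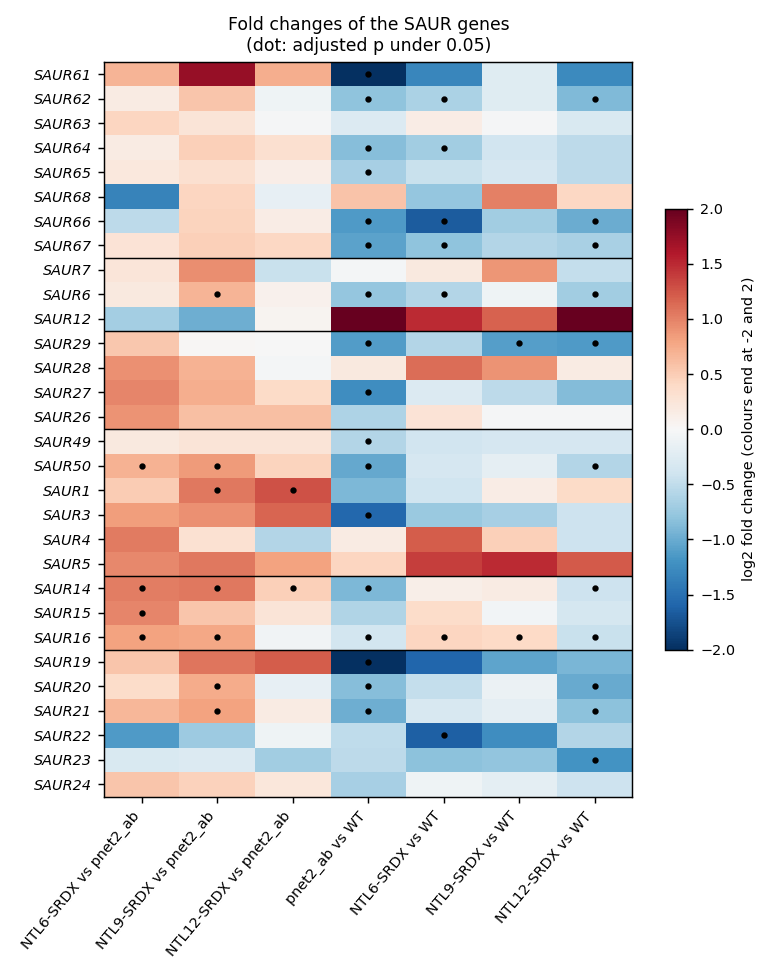
Log2 fold changes of the 30 tested SAUR genes (rows, by cluster) in 7 comparisons (columns), red for higher and blue for lower in the genotype named on the left of each column label; dots mark adjusted p under 0.05. Calls in the column of pnet2_ab against WT are all blue, and those of the lines against pnet2_ab are all red. Rows that are blue in NTL6-SRDX against pnet2_ab, without reaching the threshold, include SAUR22 and SAUR66.

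Differences between lines were tested directly. NTL9-SRDX exceeded NTL12-SRDX for 5 members, where 9.22% of all genes were higher, and 0 were lower, where 7.07% of all genes were lower. The 5 were SAUR14 (0.58 ± 0.11, adjusted p = 0.00098), SAUR16 (0.84 ± 0.12, adjusted p = 4.3e-05), SAUR6 (0.60 ± 0.13, adjusted p = 0.0032), SAUR20 (0.90 ± 0.24, adjusted p = 0.011) and SAUR62 (0.63 ± 0.20, adjusted p = 0.035). NTL6-SRDX exceeded NTL12-SRDX for SAUR14 (0.54 ± 0.11, adjusted p = 0.0016) and SAUR16 (0.88 ± 0.12, adjusted p = 2.2e-05), where 8.99% of all genes were higher, and no member was lower, where 8.46% of all genes were lower. NTL6-SRDX lay below NTL9-SRDX for SAUR66 (-0.97 ± 0.26, adjusted p = 0.023) and SAUR6 (-0.49 ± 0.13, adjusted p = 0.03), where 4.11% of all genes were lower, and no member was higher, where 1.95% of all genes were. SAUR14 and SAUR16 did not differ between NTL6-SRDX and NTL9-SRDX past the threshold (-0.04 ± 0.11 and 0.04 ± 0.12). At an unadjusted p under 0.05, 0 members were lower in NTL9-SRDX than in NTL12-SRDX, 3 were lower in NTL6-SRDX than in NTL12-SRDX and 0 were higher in NTL6-SRDX than in NTL9-SRDX, and DESeq2 called 0 in each of these directions. Both calls of NTL6-SRDX against NTL9-SRDX were lost without NTL6-SRDX replicate 1 (-1.02 for SAUR66 and -0.37 for SAUR6) or NTL9-SRDX replicate 2 (-0.88 and -0.46). SAUR66 was also lost without NTL6-SRDX replicate 2 (-0.92), and SAUR6 without NTL9-SRDX replicate 1 (-0.53) or with limma on FPKM (-0.48). In NTL9-SRDX against NTL12-SRDX, SAUR6 was lost without NTL12-SRDX replicate 1 (0.44), SAUR62 without NTL9-SRDX replicate 1 (0.51), NTL12-SRDX replicate 1 (0.63) or NTL12-SRDX replicate 2 (0.64), and SAUR20 without NTL9-SRDX replicate 2 (0.66), NTL12-SRDX replicate 1 (0.89) or NTL12-SRDX replicate 2 (0.90).

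The genes that act before the SAUR genes were read in the same comparison of pnet2_ab with WT, in which 17.2% of all tested genes were higher and 16.8% lower. Of the 6 auxin receptors, AFB2 was higher (0.28 ± 0.09, adjusted p = 0.025) and 0 were lower; TIR1 had a value of -0.18 ± 0.09. Of 24 tested Aux/IAA repressors, 1 was higher and 3 were lower (median 0.08). IAA17 had 9.07 and 9.42 CPM in pnet2_ab, against 21.0 and 19.5 CPM in WT (-1.13 ± 0.16, adjusted p = 5.2e-06), IAA14 had 4.44 and 5.58 CPM in pnet2_ab, against 14.6 and 12.9 CPM in WT (-1.46 ± 0.22, adjusted p = 2e-05), and IAA2 was higher (0.65 ± 0.10, adjusted p = 3.9e-05). The share of Aux/IAA genes called was below that of all genes in both directions, and 20 of the 24 did not pass. Of 9 ARFs, not sorted into activators and repressors, ARF4 (0.43 ± 0.11), ARF5 (0.43 ± 0.12) and ARF7 (0.33 ± 0.11) were higher and 0 were lower. Of 9 tested genes of auxin synthesis, TAR2, an aminotransferase of the indole-3-pyruvate route, was lower (-0.76 ± 0.17, adjusted p = 0.0013) and 0 were higher. Of 8 growth regulators, PIF3 (0.93 ± 0.13, adjusted p = 6.1e-06), PIF5 (0.46 ± 0.08, adjusted p = 0.00015) and BES1 (0.39 ± 0.07, adjusted p = 0.00019) were higher and 0 were lower. The AFB2 call was lost without WT replicate 1 (0.26), WT replicate 2 (0.28) or pnet2_ab replicate 2 (0.24) and with the 4 libraries alone (0.27). Without WT replicate 2, ARF4 (0.32), ARF5 (0.36) and ARF7 (0.18) missed the threshold, as did ARF7 without pnet2_ab replicate 1 (0.32) or 2 (0.33), with DESeq2 (0.32) or with limma on FPKM (0.31).

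GH3 genes encode enzymes that conjugate auxin to amino acids, and several are auxin-induced like the SAUR genes. Of 6 tested, 3 were higher in pnet2_ab than in WT and 0 lower (median 0.45), where 17.2% of all genes were higher and 16.8% lower. GH3.5 had 25.8 and 29.4 CPM in pnet2_ab, against 8.0 and 6.69 CPM in WT (1.91 ± 0.16, adjusted p = 5.9e-09), GH3.17 was also higher (1.03 ± 0.21, adjusted p = 0.00058), and GH3.6 had a value of 0.34 ± 0.11 (adjusted p = 0.024). In the lines against pnet2_ab, 3 GH3 genes were lower in NTL6-SRDX, 4 in NTL9-SRDX and 4 in NTL12-SRDX, and 0 were higher in each, where 9.35%, 10.8% and 3.84% of all genes were lower. The GH3.17 call was lost in NTL9-SRDX without pnet2_ab replicate 1 (-0.49) or either NTL9-SRDX library (-0.70 and -0.56) and with limma on FPKM (-0.56), and in NTL12-SRDX without pnet2_ab replicate 1 (-0.79) or NTL12-SRDX replicate 1 (-0.74). GH3.5 was at 7.81 and 7.79 CPM in NTL6-SRDX, 8.62 and 8.02 CPM in NTL9-SRDX and 12.9 and 15 CPM in NTL12-SRDX. The NTL6-SRDX libraries lay within the WT range, the NTL9-SRDX libraries just above it and the NTL12-SRDX libraries further above, all of them below pnet2_ab. The GH3.6 call was lost without WT replicate 1 (0.27), WT replicate 2 (0.37) or pnet2_ab replicate 2 (0.28), and with limma on FPKM (0.33).

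Downstream of the SAUR proteins, 2 of 9 PP2C.D phosphatase genes were higher in pnet2_ab and 0 lower, a share of higher genes near the 17.2% of all genes: PP2C.D8, at 32.2 and 39.0 CPM in pnet2_ab against 22.4 and 22.7 CPM in WT (0.66 ± 0.12, adjusted p = 0.00011), and PP2C.D9 (0.59 ± 0.21, adjusted p = 0.033). PP2C.D8 was lower than in pnet2_ab in NTL6-SRDX (-0.46 ± 0.11, adjusted p = 0.0057) and in NTL9-SRDX (-0.70 ± 0.11, adjusted p = 9.2e-05), and it was at 38.8 and 38.4 CPM in NTL12-SRDX, within the pnet2_ab range. Of 10 tested proton pump genes, 3 were higher and 1 lower, where 17.2% of all genes were higher and 16.8% lower. AHA4 had 4.76 and 6.85 CPM in pnet2_ab, against 1.15 and 1.29 CPM in WT (2.24 ± 0.34, adjusted p = 2.2e-05). AHA9, known from anthers, had 4.99 and 2.65 CPM in pnet2_ab, against 0 and 0.0446 CPM in WT, which is under the floor of 3 counts (adjusted p = 1.3e-07). AHA11 was lower, at 90.4 and 82.7 CPM in pnet2_ab against 117 and 112 CPM in WT (-0.41 ± 0.08, adjusted p = 0.00046). The PP2C.D9 call was lost without WT replicate 2 (0.41), pnet2_ab replicate 1 (0.61) or pnet2_ab replicate 2 (0.56), and with DESeq2 (0.58) or limma on FPKM (0.54), and the PP2C.D8 call in NTL6-SRDX without pnet2_ab replicate 2 (-0.32) or NTL6-SRDX replicate 2 (-0.45).

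Markers of cell types were read in the same libraries; in pnet2_ab against WT 17.2% of all genes were higher and 16.8% lower, and lists with 1 gene called of 3 or 4 are near those shares. Mesophyll markers summed to between 45000 and 56400 CPM in the lines and to 40800 and 42600 CPM in pnet2_ab, against 69300 and 63900 CPM in WT, with 5 of 5 lower in pnet2_ab. Floral organ markers (LFY, AP1, AP3, PI, AG and SEP3) summed to 5.75 and 5.14 CPM in NTL6-SRDX, 4.88 and 6.87 CPM in NTL9-SRDX, 8.0 and 8.48 CPM in NTL12-SRDX, and 15.3 and 9.7 CPM in pnet2_ab, against 2.2 and 2.18 CPM in WT, with 3 of 6 higher in pnet2_ab than in WT. SEP3 made up the largest part of the pnet2_ab sums, at 7.47 and 6.36 CPM, against 1.15 and 0.713 CPM in WT. AP1 had no count in NTL9-SRDX, NTL12-SRDX or WT and was at 2.35 and 0.856 CPM in pnet2_ab. AG went the other way, at 0.685 and 0.326 CPM in pnet2_ab, against 0.75 and 0.892 CPM in WT. Epidermal markers summed to 849 and 818 CPM in pnet2_ab, against 922 and 928 CPM in WT (3 of 5 lower). Among them, PDF1 went the other way, at 274 and 244 CPM against 220 and 241 CPM. Guard cell markers summed to 46 and 45.4 CPM in pnet2_ab, against 59 and 65.7 CPM in WT (1 of 4 lower). Most of that fall was in KAT1, at 13.1 and 14.5 CPM against 28.1 and 29.4 CPM. FAMA overlapped WT, at 21.2 and 19.7 CPM against 17.1 and 22.4 CPM. Vascular markers summed to 301 CPM in each pnet2_ab library, against 328 and 321 CPM in WT (1 of 4 lower). Markers of young dividing leaf cells summed to 42.6 and 38 CPM in pnet2_ab, against 26.4 and 23.7 CPM in WT (2 of 3 higher), and root markers to 140.0 and 170.0 CPM in pnet2_ab, against 96 and 169 CPM in WT (1 of 3 higher, 1 lower). No marker was at 0 in every library. The part of these differences in the SAUR values was not tested.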

How the data were processed

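The authors deposited whole-number counts per gene, and FPKM values of the same genes in which they had divided by gene length and library size. The submitters' processing notes name the aligner HISAT2 2.0.4, the counter HTSeq 0.6.1p1 and the build TAIR10, while the counting mode and strand setting are not given in the sources used here. Libraries were grouped by title and held 22.6 to 28.3 M counts, which limits precision for the low members.

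The tests used edgeR 4.0.16 under R 4.3.3 on the deposited counts. filterByExpr by group kept 20334 of 33602 genes, and libraries were scaled by TMM (factors 0.884 to 1.082), as are all CPM. The fit held all 10 libraries and a term for each genotype, and 10 comparisons were tested with the quasi-likelihood F-test, Benjamini-Hochberg adjusted over all tested genes at 0.05. Fold changes are log2 ± SE. The procedure was tested on simulated data. Alternatives were RLE scaling, DESeq2 1.42.0, no low-count filter, the 4 libraries of a comparison alone, a replicate block, leaving out each library, and limma 3.58.1 on log2(FPKM + 0.5).

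Promoters came from RefSeq (TAIR10.1), and gene coordinates are those of the authors' table. All 27998 genes found in both annotations overlapped at the same place, but only 14051 had the same start or end in both. Promoter windows therefore need not meet the printed gene coordinates. The minus-strand gene SAUR50 starts at 16582879 on chromosome 4 in the authors' table, while its 250 upstream bases begin at 16583076. Motifs were searched on both strands and may overlap.

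The members and gene lists were chosen with earlier results of these data known. Members called in at least 1 of the 4 main comparisons are given per library, and from each pathway list at most the 3 tested genes with the smallest adjusted p in pnet2_ab against WT. The PP2C.D names come from general knowledge. Other SAUR genes were first to be found by symbol or description, which gave 4 genes, 1 of them a U-box protein. A wider rule on all recorded names, made after the files were seen, gave the 47 genes used.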

Additional observations from a re-analysis of the deposited data

Results flagged for a closer look

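Levels of 6 SAUR genes differed between lines that share the pnet2_ab background, each tested directly as line against line with edgeR. Of the 30 tested members, 2 were lower in NTL6-SRDX than in NTL9-SRDX, where 4.11% of all tested genes were. Higher than in NTL12-SRDX were 2 members in NTL6-SRDX and 5 in NTL9-SRDX, where 8.99% and 9.22% of all tested genes were. The counts that involve NTL6-SRDX are near the shares of all genes. SAUR66 was lower in NTL6-SRDX than in NTL9-SRDX, at a log2 fold change of -0.97 (adjusted p = 0.023; both NTL6-SRDX libraries below both NTL9-SRDX libraries), and SAUR6 was lower at -0.49 (adjusted p = 0.03). SAUR14 and SAUR16 were higher in NTL6-SRDX than in NTL12-SRDX, at 0.54 (adjusted p = 0.0016) and 0.88 (adjusted p = 2.2e-05). In NTL9-SRDX against NTL12-SRDX, SAUR14 was higher at 0.58 (adjusted p = 0.00098), SAUR16 at 0.84 (adjusted p = 4.3e-05), SAUR6 at 0.60 (adjusted p = 0.0032), SAUR20 at 0.90 (adjusted p = 0.011) and SAUR62 at 0.63 (adjusted p = 0.035). For all 9 differences both libraries of the first-named line lay on the same side of both libraries of the other. The differences were called on these same libraries, so this is no separate evidence, and the share of all genes without overlap was not taken. Those of SAUR14 and SAUR16 held in every alternative run. Those of SAUR66, SAUR6 (both comparisons), SAUR20 and SAUR62 were lost in some. Groups of 2 libraries are too small for a check of single outlying libraries.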

How the results depend on the processing

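Of 944 log2 fold changes of called members recomputed under the alternatives, 841 stayed past the threshold, 103 missed it and 0 changed direction; 22 of 59 calls held in every alternative. Of 320 counts of members, 37 moved by over 1.5 times or to or away from 0; the cause was not tested. Without the low-count filter, 1 member was higher in pnet2_ab than in WT, 1 was lower in NTL6-SRDX than in pnet2_ab, 4 were higher in NTL12-SRDX than in pnet2_ab, 3 were lower in NTL9-SRDX than in WT and 1 was higher in NTL12-SRDX than in WT. With limma on FPKM, 1 was higher in pnet2_ab than in WT, 0 were higher and 2 lower in NTL9-SRDX than in WT, 1 was higher in NTL12-SRDX than in WT and 1 was lower in NTL6-SRDX than in NTL9-SRDX. With the 4 libraries alone, 1 was higher in NTL12-SRDX than in WT. The member gained as higher than WT in pnet2_ab or NTL12-SRDX was SAUR12 each time. Leaving out a library in turn, with the lone sample of its group assumed to vary like the other groups, gave 0 to 1 higher and 9 to 17 lower members in pnet2_ab against WT. Against pnet2_ab it gave 3 to 4 higher in NTL6-SRDX, 5 to 8 in NTL9-SRDX and 0 to 3 in NTL12-SRDX. Against WT it gave 0 to 1 higher and 2 to 6 lower in NTL6-SRDX, 0 to 1 higher and 0 to 2 lower in NTL9-SRDX, and 0 to 1 higher and 5 to 11 lower in NTL12-SRDX. Between lines it gave 0 to 2 lower in NTL6-SRDX than in NTL9-SRDX, 2 to 3 higher and 0 to 1 lower in NTL6-SRDX than in NTL12-SRDX, and 3 to 7 higher in NTL9-SRDX than in NTL12-SRDX. Over all genes, same-numbered libraries did not deviate together (correlations -0.0381 to 0.0317). A correlation over all genes cannot show whether a batch was shared by some genes or some groups. The replicate block gave 16 lower members in pnet2_ab against WT and 6 higher in NTL9-SRDX against NTL12-SRDX. For the other lists, 784 values of named genes gave 718 past the threshold and 66 not, with 0 reversed. Depth limits the members near the floor (SAUR2, SAUR4, SAUR5, SAUR12, SAUR61 and SAUR68).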
